A study of Mus musculus with 6 samples.

Results

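Troponins and tropomyosins are the proteins of the thin filament that switch muscle contraction on and off, and 9 of their genes were followed here: the fast troponin genes Tnnt3, Tnni2 and Tnnc2, the slow troponin genes Tnnt1, Tnni1 and Tnnc1, and the tropomyosin genes Tpm1, Tpm2 and Tpm3. They were taken by symbol from a table of 11815 genes, and all 9 passed the filter for testing (1 RPKM or more in 3 or more libraries), as did 7574 genes in all. RPKM is a read count scaled by gene length and by the total of the library. Tropomyosin lies along the actin filament and covers the sites where myosin binds. Troponin C binds calcium, troponin I holds the filament off, and troponin T ties both to tropomyosin, so that calcium moves tropomyosin aside. Fast and slow fibres use different genes for each subunit, which makes the set a common readout of fibre type.

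Muscle came from the gastrocnemius, a mainly fast muscle of the calf, of 15-week-old mice. The knockout (KO) mice lacked the long non-coding RNA lnc-ORA through a CRISPR deletion of 5147 bp, made with a pair of guides and Cas9 mRNA in fertilized eggs on the C57BL/6 background, and the founders were bred to wild-type mice. The wild-type (WT) mice carried no deletion. There were 3 KO libraries (replicates 1, 2 and 3) and 3 WT libraries (replicates 2, 3 and 4), and the question was whether loss of lnc-ORA shifts muscle between fibre types. The labels give neither the sex nor the zygosity of the mice, nor whether the 6 libraries stand for separate animals, so the spread behind each p-value may be technical. The level of lnc-ORA was not analysed here, and the genotype labels were taken as given.

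In the mouse genome (GRCm38, GENCODE M21) Tnni2 (chr7:142441808-142444410) and Tnnt3 (chr7:142498836-142516009) lie near each other on the plus strand, while Tnnt1 lies at chr7:4504570-4516382. The other genes lie at chr1:135779434-135810989 (Tnni1), chr2:164777161-164779967 (Tnnc2), chr14:31208312-31211729 (Tnnc1), chr9:67022590-67049406 (Tpm1), chr4:43514711-43523765 (Tpm2) and chr3:90072649-90100902 (Tpm3). Values are per gene over all its annotated exons, so splice forms, which are many in troponin T and tropomyosin genes, are not separated.

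The files gave 55607994 to 68718183 counted reads in KO libraries and 54370181 to 69693905 in WT libraries. The 9 genes took 18.1% to 20.2% of these reads in KO and 16.7% to 20.004% in WT, and 5 of them (Tpm1, Tnnt3, Tnnc2, Tnni2 and Tpm2) were among the 10 genes with the most reads. Those 10 genes together took 50.2% to 53.9% of the reads in KO and 44.4% to 48.3% in WT, so the groups did not overlap in this share, and every other gene was set against a smaller remainder in KO. Both Tnnc2 and Ube2c are among the 10, with nearly the same reads in each library, as given below. The share, and the part left out of the totals, may therefore hold those reads more than once. The median log2 fold change of all tested genes was -0.09. Making library medians equal raised KO against WT by 0.13 on the log2 scale, and leaving the 10 genes out of the totals raised it by 0.15. WT replicates 2 and 3 stood at opposite ends of the WT group for all slow genes, as given below, and results are shown with and without them.

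In KO muscle Tpm2 was lower and the other 8 genes were not called in either direction. Tpm2, the beta tropomyosin of both fast and slow fibres, fell by 0.50 on the log2 scale, while Tpm1, the alpha tropomyosin of fast fibres, stood at 0.23 without passing. The 3 fast troponin genes stood between 0.05 and 0.18 with the deposited scaling. The 4 slow genes (Tnnt1, Tnni1, Tnnc1 and Tpm3) had lower KO means, but the KO values lay inside the range of the WT values. The call rate has to be read against the whole table, where 17.3% of tested genes were called by limma at an adjusted p under 0.05, 3.83% as higher and 13.5% as lower in KO. Of these calls 22.1% were higher in KO, against 45.7% with equal library medians and 52.6% without the 10 most abundant genes in the totals. In 39.2% of tested genes the KO and WT libraries did not overlap. So 1 call among 9 genes is close to the rate over all genes.

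**Figure D1:**
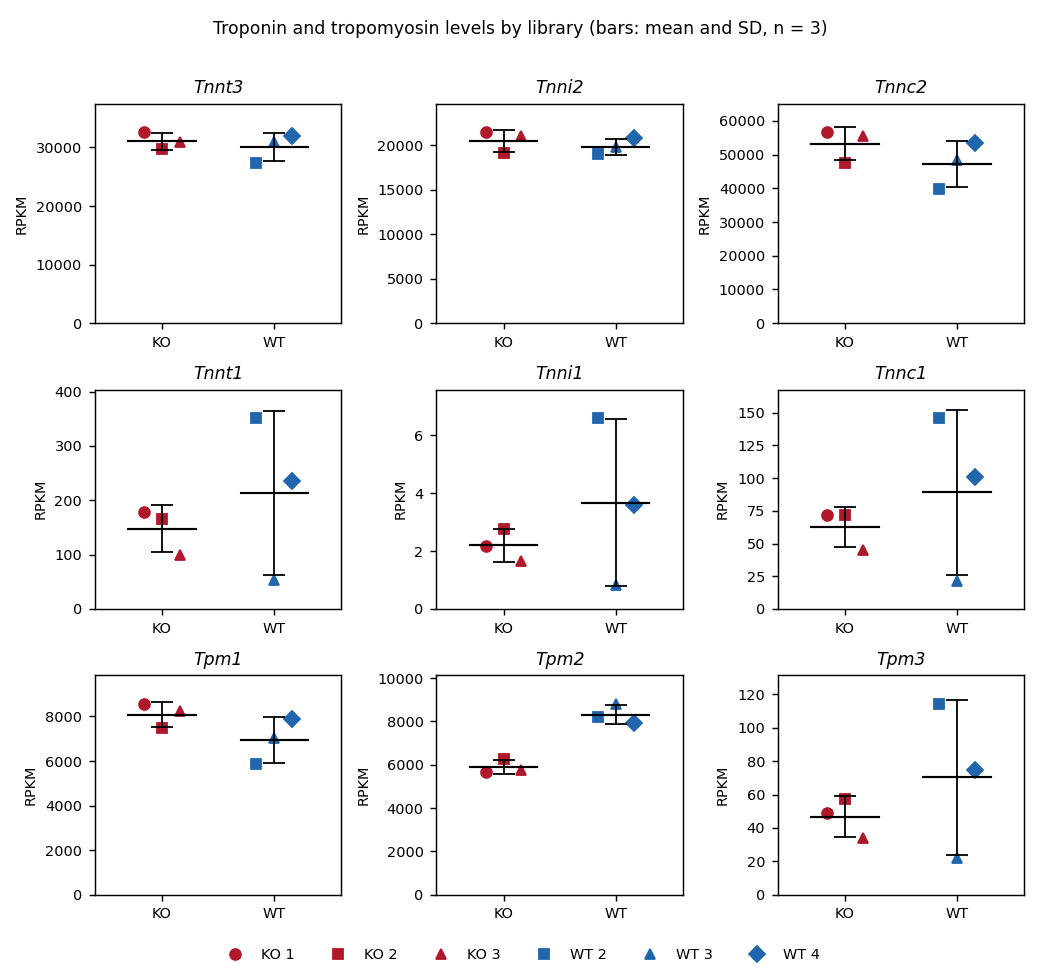
RPKM of each gene in the 3 KO (red) and 3 WT (blue) libraries, with a marker per library and black bars for the mean and SD (n = 3 each). Tpm2 is the gene whose groups do not overlap; the slow genes Tnnt1, Tnni1, Tnnc1 and Tpm3 spread widely in WT, with WT replicate 2 at the top and WT replicate 3 at the bottom.

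Tpm2 stood at 5663, 6281 and 5752 RPKM in KO replicates 1, 2 and 3, against 8198, 8808 and 7935 RPKM in WT replicates 2, 3 and 4. Every KO library lay below every WT library, and the highest value of a group was 1.11 times the lowest in both groups. The means were 5899 ± 334 RPKM in KO and 8313 ± 448 RPKM in WT (SD, n = 3 each). The log2 fold change was -0.50 (SE 0.0985, 95% confidence interval -0.72 to -0.27, adjusted p = 0.0145 with limma). That is 0.71 times the WT level on the fold scale. The call ended with library medians made equal (log2 fold change -0.37, adjusted p = 0.0954) and with the 10 most abundant genes left out of the totals (-0.35, adjusted p = 0.0819). Leaving out KO replicate 1 gave -0.47 (adjusted p = 0.0785) and leaving out KO replicate 3 gave -0.48 (adjusted p = 0.0712), so the threshold was missed there with a change of about the same size.

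Sequence before the start of Tpm2 is shown because it is the member that was called. The stretch runs from 146 to 42 bases before the RefSeq start and leaves out bases that lie in an annotated exon (GRCm38.p6, minus strand, chr4:43523596-43523700). It was searched on both strands for the E-box (CANNTG) and the MCAT element (CATTCC), motifs bound in muscle by myogenic factors and TEAD factors, and held neither. The whole window of 250 bases held 1 E-box, outside the stretch shown.
Tpm2: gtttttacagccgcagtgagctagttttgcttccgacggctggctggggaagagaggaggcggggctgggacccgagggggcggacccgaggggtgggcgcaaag

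Tpm1 had 8562, 7468 and 8236 RPKM in KO replicates 1, 2 and 3, against 5873, 7044 and 7909 RPKM in WT replicates 2, 3 and 4. WT replicate 4 lay above KO replicate 2, so the groups overlapped. The log2 fold change was 0.23 (SE 0.13, adjusted p = 0.259 with limma). The lowest Tpm1 value was that of WT replicate 2, and without it the log2 fold change was 0.11, while without WT replicate 4 it was 0.33. With library medians made equal it was 0.36 and without the 10 most abundant genes in the totals 0.38, and Tpm1 was called with limma in none of these (adjusted p of 0.0962 to 0.556).

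Tpm1 and Tpm2 were also set against each other within a library. The ratio of Tpm1 to Tpm2 RPKM was 1.51, 1.19 and 1.43 in KO replicates 1, 2 and 3, against 0.716, 0.80 and 0.997 in WT replicates 2, 3 and 4. Tpm1 was the higher gene in all KO libraries and the lower gene in all WT libraries. The mean log2 ratio was 0.45 ± 0.18 in KO and -0.27 ± 0.24 in WT (SD, n = 3 each), a difference of 0.72, with p = 0.1 in a two-sided exact permutation test, the smallest p that 3 against 3 libraries allow. A ratio within a library does not depend on how libraries are scaled, and it shows unequal change of the pair, not which gene moved. This ratio was chosen after its values were seen. Which gene is the higher depends on the gene length: with the longest protein-coding transcript of each gene (2890 bases for Tpm1, 2175 for Tpm2) in place of the authors' lengths (6485 and 2909 bases), the ratio ran from 1.202 to 2.54 over the 6 libraries, so Tpm1 was the higher in all, and the difference between groups was as before.

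As shares of the summed RPKM of Tpm1, Tpm2 and Tpm3, Tpm2 made up 42.1 ± 3.05% in KO and 54.4 ± 4.09% in WT, and Tpm1 57.6 ± 3.11% in KO and 45.2 ± 4.20% in WT (SD, n = 3 each). The sum itself was 13807 to 14274 RPKM in KO and 14185 to 15919 RPKM in WT, and the groups overlapped. These shares and the sum rest on the authors' gene lengths. With the longest transcripts the ratio of Tpm1 to Tpm2 was at least 1.202 in every library, so Tpm1 would be the larger part in WT too. Tpm3 was a minor part, at 0.241% to 0.417% in KO and 0.137% to 0.806% in WT.

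**Figure D2:**
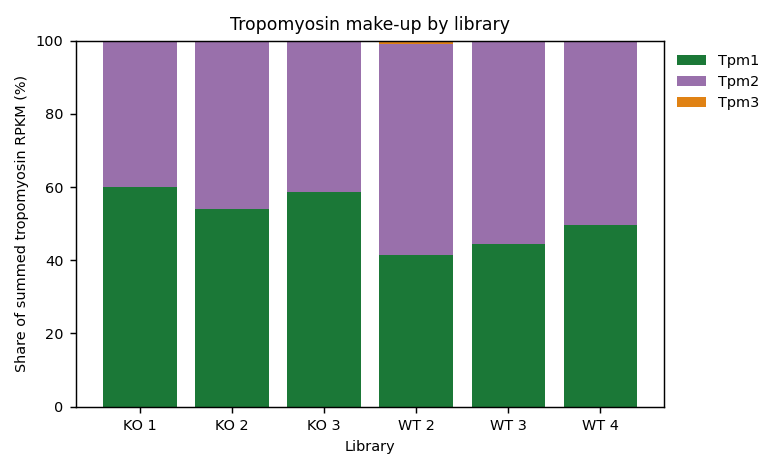
Stacked bars of the share of Tpm1, Tpm2 and Tpm3 in the summed tropomyosin RPKM of each library, in percent, with KO libraries on the left. With the authors' gene lengths, on which the shares rest, Tpm1 takes 54.1% to 59.98% in KO and 41.4% to 49.7% in WT. Tpm3 is too small to see in most bars.

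None of the fast troponin genes was called. Tnnt3, which encodes fast troponin T, had 32561, 29671 and 30968 RPKM in KO replicates 1, 2 and 3, against 27331, 30838 and 32019 RPKM in WT replicates 2, 3 and 4. The groups overlapped, and the log2 fold change was 0.05 (SE 0.11, 95% confidence interval -0.21 to 0.30, adjusted p = 0.786 with limma). Tnni2, which encodes fast troponin I, had 21464, 19114 and 21016 RPKM in KO, against 19003, 19816 and 20805 RPKM in WT. Its log2 fold change was also 0.05 (95% confidence interval -0.19 to 0.28, adjusted p = 0.787 with limma). These intervals hold for the deposited scaling. With library medians made equal the log2 fold changes were 0.18 for Tnnt3 and 0.17 for Tnni2, and without the 10 most abundant genes in the totals 0.199 and 0.196, still not called with limma (adjusted p of 0.38 to 0.514).

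Tnnc2, which encodes fast troponin C, had 56583, 47572 and 55583 RPKM in KO replicates 1, 2 and 3, against 39800, 48480 and 53429 RPKM in WT replicates 2, 3 and 4. The groups overlapped, with WT replicate 2 the lowest library (log2 fold change 0.18, SE 0.14, adjusted p = 0.415 with limma). It stood at 0.061 without WT replicate 2, at 0.31 with library medians made equal and at 0.33 without the 10 most abundant genes in the totals, and was not called. Its count is not its own alone. Ube2c, a ubiquitin-conjugating enzyme gene of dividing cells, lies on the opposite strand across Tnnc2, and 55.0% of the 50-base stretches of the Tnnc2 transcript also occur, in reverse complement, in a Ube2c transcript. The recovered reads of Tnnc2 exceeded those of Ube2c by 743 to 1070 per library, at most 0.0506% of the Tnnc2 reads, which came to between 2108692 and 3110629. Ube2c was thereby among the 10 genes with the most reads. How the counting treated strand was not stated in the labels, and the reads of the pair cannot be told apart.

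The 3 fast troponins and Tpm1 kept a close ratio to each other. Tnnt3 to Tnni2 ran from 1.44 to 1.56 over the 6 libraries, Tnnt3 to Tnnc2 from 0.557 to 0.687, and Tpm1 to Tnnt3 from 0.215 to 0.266. All 4 genes were highest in KO replicate 1 and lowest in WT replicate 2. These values share the library scaling, which sets part of any common order.

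**Figure D3:**
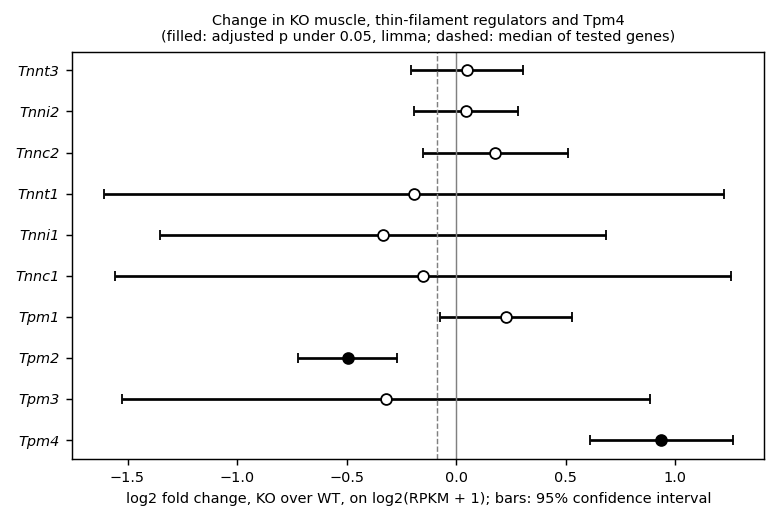
Log2 fold change of KO over WT for the 9 genes and for Tpm4, a tropomyosin of non-muscle cells, on the log2(RPKM + 1) scale with 95% confidence intervals from limma; filled points have an adjusted p under 0.05, and the dashed line is the median of all tested genes (-0.09). The intervals of the slow genes are several times wider than those of the fast genes.

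The slow genes were scarce in this fast muscle and differed more among WT libraries than between genotypes. Tnnt1, which encodes slow troponin T, had 178, 166 and 99.3 RPKM in KO replicates 1, 2 and 3, against 351, 52.8 and 236 RPKM in WT replicates 2, 3 and 4. The KO libraries lay between the WT extremes, and the highest KO library was 1.80 times the lowest, against 6.65 times in WT. The log2 fold change was -0.19 (SE 0.61, 95% confidence interval -1.61 to 1.22, adjusted p = 0.853 with limma).

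Tnnc1, which encodes the troponin C of slow and heart muscle, had 71.7, 71.6 and 45.1 RPKM in KO replicates 1, 2 and 3, against 146, 21.3 and 101 RPKM in WT replicates 2, 3 and 4. Its groups overlapped in the same way (log2 fold change -0.15, SE 0.61, adjusted p = 0.886 with limma). Tnni1, which encodes slow troponin I, was the scarcest member, with 2.17, 2.76 and 1.65 RPKM in KO, against 6.58, 0.817 and 3.58 RPKM in WT. These rested on 363 to 552 reads per library in KO and 160 to 1652 reads per library in WT. Its log2 fold change was -0.33 (SE 0.44, adjusted p = 0.633 with limma), on a scale that understates the change of so low a gene.

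Tpm3, the slow alpha tropomyosin, had 49.2, 57.6 and 33.7 RPKM in KO replicates 1, 2 and 3, against 114, 21.7 and 74.7 RPKM in WT replicates 2, 3 and 4. The groups overlapped (log2 fold change -0.32, SE 0.52, adjusted p = 0.704 with limma). Tpm3 also makes tropomyosins of non-muscle cells, and a gene level does not separate them. Tpm3-rs7, a copy that holds 62.4% of the 50-base stretches of the longest Tpm3 transcript, had reads that came to at most 0.327% of those of Tpm3, and how the counting shared reads between them is not given.

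WT replicate 2 was the highest and WT replicate 3 the lowest library for all 4 slow genes, and KO replicate 3 was the lowest KO library for all 4. Without WT replicate 3 the log2 fold changes were -1.002 for Tnnt1, -0.90 for Tnni1, -0.97 for Tnnc1 and -0.9997 for Tpm3, and none was called with limma (adjusted p of 0.0698, 0.0575, 0.0540 and 0.0571). Without WT replicate 2 all 4 turned to the other side of 0, at 0.35, 0.13, 0.39 and 0.17. Without KO replicate 3, Tnnt1 and Tnnc1 also turned, to 0.069 and 0.067. The direction of the slow genes therefore rested on which libraries were counted.

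The slow genes moved in step. Tnnt1 and Tnnc1 put the 6 libraries in the same order, and Tnnt1 to Tnnc1 ran only from 2.20 to 2.49, although each gene spanned more than 6-fold. Tnnt1 to Tpm3 ran from 2.43 to 3.63 and Tnnt1 to Tnni1 from 53.3 to 82.2. The 8 slow-fibre markers with values here (Myh7, Myh7b, Myl2, Myl3, Atp2a2, Casq2, Myoz2 and Csrp3) summed to 183 to 294 RPKM in KO and 127 to 585 RPKM in WT, and WT replicates 3 and 2 again held the lowest and the highest sum. Of these 8 markers 1 was called, Csrp3, as lower, beside 13.5% of all tested genes. At an unadjusted p under 0.05 with limma, 2 of the 8 were lower and 0 higher. The median log2 fold change of the 8 markers was -0.36, with 7 below 0 and 1 above. Of all tested genes 32.4% lay above 0, and the median was -0.09. Myh7, the slow myosin, had 103, 112 and 69.3 RPKM in KO replicates 1, 2 and 3, against 269, 30.9 and 124 RPKM in WT replicates 2, 3 and 4. In whole muscle RNA, fewer slow fibres and less slow RNA per fibre cannot be told apart, and the part of the slow-fibre content of each piece of muscle in these values was not tested.

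**Figure D4:**
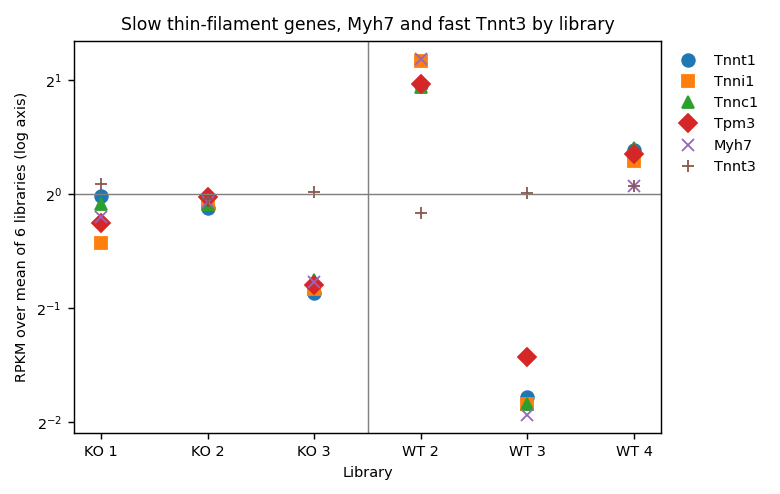
RPKM of the 4 slow genes, of Myh7 and, for comparison, of the fast gene Tnnt3, each divided by its mean over the 6 libraries, by library on a log2 axis. The slow genes and Myh7 lie together within each library, highest in WT replicate 2 and lowest in WT replicate 3, while Tnnt3 stays near 1 throughout.

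Sequence before Tnnt1 and Tnnc1 is shown because these genes gave the same order of libraries. A shared order was not particular to them, since Tnni1 and Tpm3 also shared an order, as did Tnni2 and Tnnc2. Both lie before the RefSeq starts (GRCm38.p6), Tnnt1 from 250 to 30 bases before it (minus strand, chr7:4516005-4516225) and Tnnc1 from 250 to 1 base before it (plus strand, chr14:31208062-31208311). Capitals mark matches to the E-box CANNTG and to the MCAT element CATTCC on either strand, none of which overlap.
Tnnt1: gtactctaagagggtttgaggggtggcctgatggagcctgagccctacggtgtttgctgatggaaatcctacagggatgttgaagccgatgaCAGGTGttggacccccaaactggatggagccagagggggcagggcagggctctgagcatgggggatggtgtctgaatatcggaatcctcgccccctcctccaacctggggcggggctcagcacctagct
Tnnc1: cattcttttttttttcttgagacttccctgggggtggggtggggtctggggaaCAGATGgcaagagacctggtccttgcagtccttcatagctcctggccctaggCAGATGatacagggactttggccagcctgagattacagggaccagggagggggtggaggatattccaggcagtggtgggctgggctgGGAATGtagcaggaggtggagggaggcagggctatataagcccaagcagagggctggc
Tnnt1 held 1 E-box, and Tnnc1 held 2 E-boxes and 1 MCAT element, the last in capitals as its reverse complement. Among all 32851 windows of 250 bases before RefSeq starts, 66.2% held an E-box and 12.6% an MCAT element. Windows were found for 7 of the 9 genes, not for Tnnt3 and Tnni2, and none of them held a CArG box or a MEF2 box, which occurred in 1.5% and 2.9% of all windows. Each window of these 7 genes held an E-box. Beside Tnnc1, the window of Tpm1, a gene of fast fibres, also held 1 MCAT element. The windows of Tnnt1, Tnni1, Tnnc2, Tpm2 and Tpm3 held none. A match describes letters and not a bound site.

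The ratio of a fast gene to its slow counterpart is a readout of fibre type that does not depend on library scaling. Tnnt3 to Tnnt1 was 182, 179 and 312 in KO replicates 1, 2 and 3, against 77.9, 584 and 136 in WT replicates 2, 3 and 4. The KO ratios lay between those of the WT libraries, and the mean log2 ratio was 7.76 ± 0.46 in KO and 7.52 ± 1.502 in WT (SD, n = 3 each; difference 0.24, p = 0.8, two-sided exact permutation test). Tnni2 to Tnni1 ran from 6932 to 12743 in KO and from 2886 to 24242 in WT (difference of mean log2 ratios 0.37, exact permutation p = 0.8). Tnnc2 to Tnnc1 ran from 664 to 1233 in KO and from 273 to 2275 in WT (difference 0.32, exact permutation p = 0.8).

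Tpm1 to Tpm3 ran from 130 to 244 in KO and from 51.4 to 324 in WT (difference 0.55, exact permutation p = 0.6). Tpm2 to Tpm3 ran from 109 to 171 in KO and from 71.7 to 405 in WT (difference -0.18, exact permutation p = 1). In all 5 ratios the KO libraries lay inside the range of the WT libraries, and the Benjamini-Hochberg adjusted p over the 5 was 1 for each. Such a p does not show that the genotypes are alike. The 5 ratios are not independent, since the slow genes moved in step and Tpm3 enters 2 of them. Fast troponin T took 99.4% to 99.7% of summed troponin T RPKM in KO and 98.7% to 99.8% in WT. This share and the levels of the 5 ratios rest on the authors' gene lengths. With the longest protein-coding transcripts, Tnnt3 to Tnnt1 ran from 54.9 to 412 over the 6 libraries and Tnni2 to Tnni1 from 1797 to 15095. The differences of mean log2 ratios do not depend on the lengths.

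**Figure D5:**
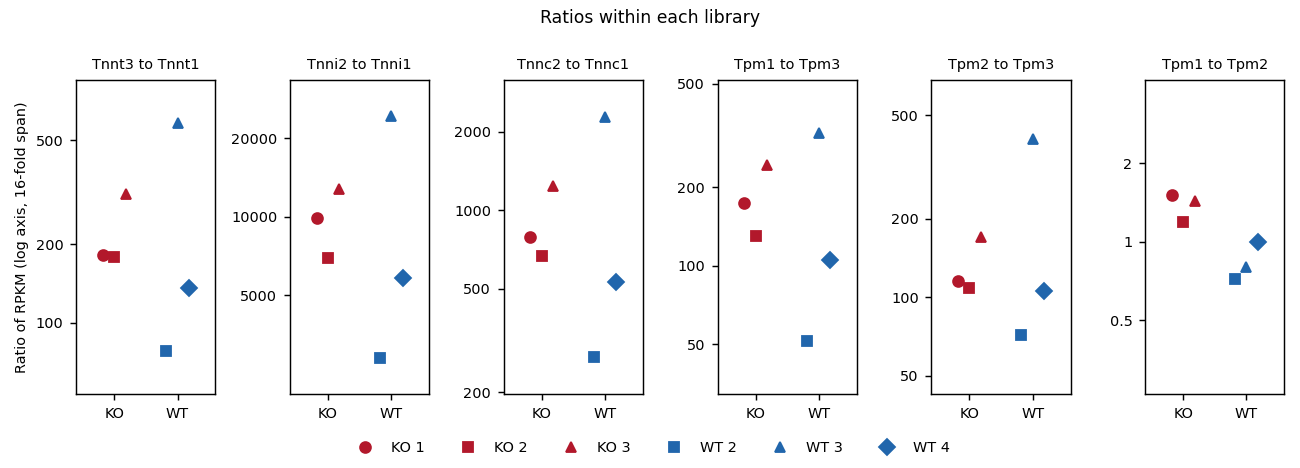
Ratio of RPKM within each library for the 5 pairs of a fast or common gene to a slow gene and for Tpm1 to Tpm2, on log axes that each span 16-fold, with KO (red) left of WT (blue). In the first 5 panels WT replicates 2 and 3 bracket the KO libraries; in the last panel all KO libraries (1.19 to 1.51) lie above all WT libraries (0.716 to 0.997).

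Of the other thin-filament genes and their assembly factors, 25 of 27 listed had values and 23 were tested. Of these 1 rose, none fell and 22 did not pass, where 3.83% of all tested genes were called higher and 13.5% lower, with 3 higher and 4 lower at an unadjusted p under 0.05, and limma-voom on the recovered reads made the same counts of calls (1 and 0). The median log2 fold change was 0.08, against -0.09 over all tested genes. The gene that rose was Tpm4, a tropomyosin of non-muscle cells, with 22.3, 22.8 and 20.9 RPKM in KO replicates 1, 2 and 3, against 13.96, 8.94 and 10.6 RPKM in WT replicates 2, 3 and 4. The groups did not overlap, and the means were 22.0 ± 0.972 RPKM in KO and 11.2 ± 2.56 RPKM in WT (SD, n = 3 each; log2 fold change 0.94, SE 0.14, adjusted p = 0.00602 with limma). Acta1, the skeletal actin of the thin filament, stood at 5823 ± 337 RPKM in KO and 5609 ± 55.1 RPKM in WT (log2 fold change 0.05, adjusted p = 0.724 with limma).

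The count for the list moved with the scaling. With library medians made equal, or without the 10 most abundant genes in the totals, 4 were called, all as higher: Tpm4, the leiomodin gene Lmod3, the capping protein gene Capza2 and Klhl40, a stabilizer of thin-filament proteins. Under these scalings the calls as higher over all 7574 tested genes also rose, from 290 to 594 and 680, in that order. Without WT replicate 2 there were 3 calls (Tpm4 and Klhl40 higher, Actc1 lower), and without WT replicate 4 also 3 (Tpm4 and Lmod3 higher, Nrap lower).

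Tpm2 and Tpm4 are also made outside muscle fibres, so markers of other cells are given beside them. For the counts below, 3.83% of all tested genes were called higher and 13.5% lower in KO. In 39.2% of all tested genes the KO and WT libraries did not overlap. The 6 smooth muscle and pericyte markers with values, of 8 listed, summed to 70.6 to 88.6 RPKM in KO and 63.9 to 104 RPKM in WT, and none of the 5 tested was called by limma or limma-voom, with 0 higher and 1 lower at an unadjusted p under 0.05. All 5 fibroblast markers had values, with a sum of 14.02 to 18.6 RPKM in KO and 10.3 to 17.9 RPKM in WT, and of 3 tested Col3a1 was called as higher. The 5 endothelial markers summed to 14.2 to 15.3 RPKM in KO and 17.3 to 28.2 RPKM in WT, without overlap, and Cldn5 was called as lower. At an unadjusted p under 0.05 with limma, 3 of these 5 were lower and 0 higher. The 8 markers of immature or regenerating fibres with values, of 9 listed, summed to 106 to 115 RPKM in KO and 112 to 209 RPKM in WT, and of 5 tested Myog was called as lower. Among those 5 tested, 2 were lower and 0 higher at an unadjusted p under 0.05 with limma. The 11 fast-fibre markers summed to 60098 to 62119 RPKM in KO and 51798 to 58338 RPKM in WT, also without overlap. Myh4, the main fast myosin of this muscle, made up most of the sum and was not called (adjusted p = 0.0885 with limma), and the other 10 summed to 19460 to 20640 RPKM in KO and 18334 to 22534 RPKM in WT, with overlap. Of the 11, Myh1 and Myh2 were called as lower and none as higher by limma or limma-voom (1 higher at an unadjusted p under 0.05). The 2 heart markers with values, of 6 listed, summed to 2.33 to 3.67 RPKM in KO and 2.48 to 7.36 RPKM in WT, and neither was called by limma or limma-voom or had an unadjusted p under 0.05 (0 of 2). The part of these cell types in the Tpm2 and Tpm4 results was not tested.

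Transcription factors and cofactors known to act on fast and slow muscle genes were listed as well. Of 23 listed, 21 had values and 14 were tested, of which 1 rose and 5 fell, beside 3.83% higher and 13.5% lower over all tested genes, with a median log2 fold change of -0.06. Vgll2, a cofactor of the TEAD factors that bind MCAT elements, fell to 4.81 ± 0.733 RPKM in KO, against 9.67 ± 2.09 RPKM in WT (SD, n = 3 each; log2 fold change -0.87, adjusted p = 0.00864 with limma). Ppargc1a, a coactivator of oxidative and slow-fibre genes, rose (log2 fold change 0.94).

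Some calls of the list were less firm. Mef2d, a factor that binds MEF2 boxes, stood at -0.41 on the log2 scale (adjusted p = 0.0248 with limma) and was no longer called when WT replicate 3 or 1 of the KO replicates was left out (highest adjusted p 0.0962). Nfatc1, a calcium-regulated factor of slow fibres, stood at -0.26 (adjusted p = 0.0394) and was not called under both other scalings, nor without any 1 library other than WT replicate 4 (highest adjusted p 0.137). Myog, a myogenic factor, stood at -0.54 (adjusted p = 0.0293) and was not called under both other scalings, nor when replicate 2 or 3 of either genotype was left out (highest adjusted p 0.108).

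The genes whose levels were most like those of the slow members were sought among 1835 other tested genes with a mean of 10 RPKM or more, by Pearson's r of log2(RPKM + 1) over the 6 libraries, given as a description. Gm29015 (0.999), Mhrt (0.998), Myl2 (0.988), Myh7 (0.988) and Srek1 (0.973) came first. Myl2 and Myh7 encode a slow myosin light chain and the slow myosin heavy chain. Mhrt and Gm29015 are antisense genes that overlap Myh7, so without strand their reads cannot be told from those of Myh7. For the 3 fast troponins the first 5 were Pfdn1 (0.994), Ube2c (0.992), Park7 (0.984), the fast myosin light chain gene Myl1 (0.98) and the calcium buffer gene Pvalb (0.969). The reads of Ube2c cannot be told from those of Tnnc2, itself among the 3 fast troponins. Its place in this ranking therefore says nothing about Ube2c. The 6 libraries share their scaling, and these genes were picked as the highest of all candidates.

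The authors' deposited table gives its own comparison, and it did not follow from the deposited RPKM. For Tpm2 the authors' deposited table has a log2 fold change of -0.14 (false discovery rate 0.597), while the log2 ratio of the mean RPKM of KO over WT is -0.50. The gap of 0.35, taken with its sign as the authors' value minus the RPKM value, lay above that of 95.3% of genes. The median signed gap over all genes was 0.14. For Tpm4 the authors' deposited table has 0.71 (false discovery rate 0.259), against 0.98 from the mean RPKM. None of the 9 genes has a false discovery rate under 0.05 in the authors' deposited table, where 191 genes do, and the lowest among the 9 is 0.226, for Tpm1. The labels do not state the libraries, scaling and test behind those columns, so the calls of Tpm2 and Tpm4 refer to the RPKM of these 6 libraries. For Tpm2 the call held with the deposited scaling and ended under both other scalings, while Tpm4 stayed called under both.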

How the data were processed

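Per the labels' protocols, mRNA of gastrocnemius was fragmented and copied with random primers, giving 3 KO and 3 WT libraries. The build is GRCm39, per the submitters' processing notes. No source used here states the aligner, counter, annotation or use of strand. The authors deposited RPKM values; their unit is not in the header and follows from the values, which turned into whole reads (within 0.02) with 1 length per gene and 1 total per library for 11814 of 11815 genes, with 9226 lengths equal to GENCODE M21 exon lengths and 2588 found by search. Per the file headers, other deposited columns hold a log2 fold change, a log2 CPM, an F score, a p-value and an FDR.

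Genotypes were compared on log2(RPKM + 1) with limma-trend (limma 3.58.1 in R 4.3.3) in a model of genotype alone, for the 7574 genes that reached 1 RPKM in 3 libraries or more. P-values were adjusted over all of them by Benjamini-Hochberg, with a threshold of 0.05. Fold changes on that scale come out too small for low genes. Ratios were tested by exact permutation over libraries. The fit was tested on simulated data with known changes. Genes were named by rule: the 9 members, called genes of the thin-filament and regulator lists, and the 5 genes most like the slow and the fast members; Myh7, Acta1 and the cell type markers called were added. A gene that the rule took is not reported here. The members and lists were chosen with earlier results of these data known. The other settings were 12, beside which the Tpm1 to Tpm2 ratio and the transcript lengths were chosen after seeing the data. Positions, overlaps and shared stretches come from GENCODE M21 (GRCm38) and promoter windows from RefSeq (GRCm38.p6), not from the build of the notes. Python 3.11.15, pandas 2.3.3, numpy 2.4.6, scipy 1.17.1 and matplotlib 3.10.9 were used. The depth is as given above, and more reads narrow counting error only, not the spread between libraries.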

Additional observations from a re-analysis of the deposited data

How the results depend on the processing

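Over all genes 1311 were called, 22.1% of them as higher in KO; 45.7% of calls were higher with library medians made equal and 52.6% without the 10 most abundant genes in the totals. Without 1 library the count ran from 471 (without KO replicate 3) to 1637 (without WT replicate 4). Among the 9 members 1 was called, Tpm2, and 0 were called with either of those 2 scalings; with 1 library left out, 0 to 1 were called. On the thin-filament list 1 was called, and 4 with either scaling, 6 with the replicate block and 1 to 3 without 1 library; Tpm4 was called in all 12 other settings. The log2 change of Tnnt3 turned to -0.017 without WT replicate 2, the lowest of a range up to 0.097 with 1 library left out. Tnnt1 turned to 0.07 without KO replicate 3 or WT replicate 4 and to 0.35 without WT replicate 2, Tnni1 to 0.13 and Tpm3 to 0.17 without WT replicate 2. Without WT replicate 3, which gave the lowest value, these stood at -1.002 (Tnnt1), -0.90 (Tnni1) and -0.9997 (Tpm3), and Tnnc1 at -0.97. Tnnc1 turned to 0.016 with the replicate block, 0.07 without KO replicate 3, 0.39 without WT replicate 2 and 0.13 without WT replicate 4. With 1 library left out, the difference in log2 ratio ran from -0.38 to 1.08 for Tnnt3 to Tnnt1, from -0.31 to 1.22 for Tnni2 to Tnni1, from -0.34 to 1.18 for Tnnc2 to Tnnc1, from -0.068 to 1.26 for Tpm1 to Tpm3, from -0.69 to 0.56 for Tpm2 to Tpm3 and from 0.62 to 0.86 for Tpm1 to Tpm2. The cause of these shifts was not tested. Replicate numbers 2 and 3 occur in both genotypes. Libraries of the same number deviated together from their group means over tested genes (r of 0.479 and 0.27). For KO replicate 2 with WT replicate 3 r was -0.1351, and for KO replicate 3 with WT replicate 2 it was -0.1615. But the labels give no pairing and there are only 2 pairs. With the replicate block 1548 genes were called, Tpm2 stayed called (log2 change -0.50) and Nfatc1 did not. Tnnc2 cannot be told from Ube2c, and Tnni1 rests on as few as 160 reads in a library.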
